A study of Homo sapiens with 20 samples.

Results

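The change between 6 h and 24 h in the response of MM1.S cells to dCBP-30 was measured as a difference of differences, in which the effect of dCBP-30 at 6 h (dCBP-30 minus DMSO) was subtracted, gene by gene, from its effect at 24 h. MM1.S is a human multiple myeloma line, and dCBP-30 is a small-molecule degrader of CBP and p300. Cells received DMSO (the 6h-DMSO and 24h-DMSO groups) or dCBP-30 at 10 nM (6h-dCBP30 and 24h-dCBP30), and all 4 groups were labelled with 4-thiouridine (4sU) at 100 µM for 1 h before harvest, and DMSO was thus measured anew at each time. With 3 libraries per group, the comparison used 12 of the 20 libraries of the series. The others were a 2 h time point and 2 libraries made without 4sU. All libraries came from 1 cell line, and nothing in the sources used here says that the 3 libraries of a group came from separate cultures, so the p-values below measure only the spread between these libraries. A negative difference means that a gene was relatively lower under dCBP-30 at 24 h than at 6 h, and a positive one that it was relatively higher. Where no single treatment or time is named, a gene said below to fall or rise had such a difference, whichever treatment moved.

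CBP and p300 are paralogous acetyltransferases that acetylate histones at enhancers and promoters and act as coactivators for many transcription factors. Plasma cells and myeloma cells depend on a small set of enhancer-driven regulators, among them IRF4, PRDM1, MAF and MYC, and on a large secretory apparatus for immunoglobulin. In SLAM-seq, 4sU built into new RNA is alkylated and then read as T-to-C conversions, so that reads with such conversions (T>C reads) report RNA made during the labelling hour, while all reads of a gene report the RNA present at harvest. Libraries were primed at the 3′ end, and reads were counted over 3′ untranslated regions. Each gene was represented by its transcript with the most reads.

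The 12 libraries held 13784760 to 18729086 reads on genes and 739246 to 1525634 T>C reads. The share of reads with a T>C conversion was 6.38% ± 0.182 (SD, n = 3) in 6h-DMSO, 4.98% ± 0.284 in 6h-dCBP30, 8.31% ± 0.266 in 24h-DMSO and 6.38% ± 0.475 in 24h-dCBP30. The 2 unlabelled libraries had 0.794% and 0.809%. The number of conversions per T>C read (converted T positions over T>C reads) was 2.17 ± 0.041, 2.24 ± 0.030 and 2.48 ± 0.025 in the first 3 of these groups and 1.47 ± 0.043 in 24h-dCBP30, where the libraries lay between 1.43 and 1.51, and 0.928 and 0.918 without 4sU. In 24h-dCBP30 it was 1.54 over the genes whose T>C reads were lower late and 1.53 over those whose T>C reads were higher late. Its part in the T>C differences below was not tested. Levels are given as RPM, the reads per 1000000 of the scaled total. All 10 plasma cell markers exceeded 1 RPM in every group, while 3 to 5 of 23 markers of other cells did, with CD3D, HBA2, EPCAM, KRT19 and VWF at 0. The summed level of the plasma cell markers ranged from 7164 to 7329 RPM in 6h-DMSO, 2034 to 2173 in 6h-dCBP30, 6123 to 6426 in 24h-DMSO and 645.2 to 825.7 in 24h-dCBP30, and that of the other markers from 12.1 to 33.7 across all 12 libraries.

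**Figure D1:**
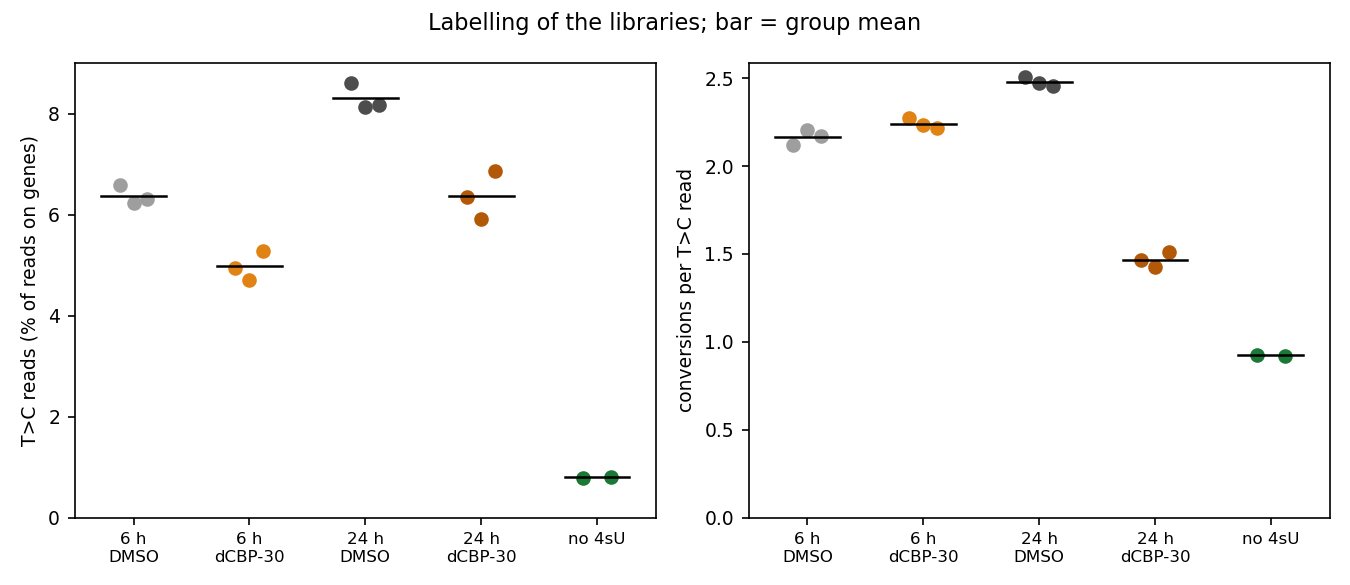
Share of reads with a T>C conversion (left, percent of reads on genes) and conversions per T>C read (right) in each 6 h, 24 h and unlabelled library, with a line at the group mean. The 3 libraries of 24h-dCBP30 hold 1.43 to 1.51 conversions per T>C read, below the 9 other labelled libraries shown and above the 2 without 4sU.

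A gene was called when its adjusted p was below 0.05 and its difference exceeded 2-fold. Of 10086 genes tested in T>C reads, 857 (8.5%) were lower late and 258 (2.56%) higher late, and of 12272 genes tested in all reads 1190 (9.7%) were lower and 1037 (8.45%) higher. Lower calls thus made up 76.86% of the T>C calls when both readouts were scaled by all reads, 62.72% without trimmed-mean factors, and 52.26% when the T>C reads were scaled to each other, a scaling that moved the median difference of all genes from -0.37 to -0.04 on the log2 scale. In all reads the lower share was 53.44%, and 36.73% without trimmed-mean factors, where the median moved from 0.03 to 0.24. Signs of single genes and lists are therefore to be read against these medians. A gene that missed the threshold may still have changed.

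Each called gene was placed by its calls at the 2 times. It was deepened if called at both times in one direction and further from DMSO at 24 h, late if called only at 24 h, recovered if called only at 6 h, eased if called at both times but nearer to DMSO at 24 h, and reversed if called in opposite directions. Among the 857 lower in T>C reads, 665 were late, 87 deepened, 36 recovered from a rise, 13 reversed and 56 called at neither time alone. Among the 258 that were higher, 112 had recovered from a fall, 108 had eased, 23 were late, 2 reversed and 13 called at neither time. The decrease thus lay mostly in genes with no call at 6 h, for which the median log2 effect went from -0.04 at 6 h to -2.13 at 24 h, and the increase mostly in genes that were low at 6 h, from -2.11 to -0.31 in the recovered genes and from -3.76 to -1.80 in the eased ones. The 6 h call and the difference share the 6 h libraries, so these placements are descriptions. In all reads the lower genes were 826 late, 88 deepened, 82 recovered, 21 reversed, 3 eased and 170 called at neither time, and the higher genes 459 late, 250 recovered, 95 eased, 41 deepened, 23 reversed and 169 called at neither time. Of the 665 late genes in T>C reads, 56 (8.42%) had an adjusted p below 0.05 at 6 h in the same direction but under 2-fold, as had 176 of 826 (21.3%) in all reads.

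**Figure D2:**
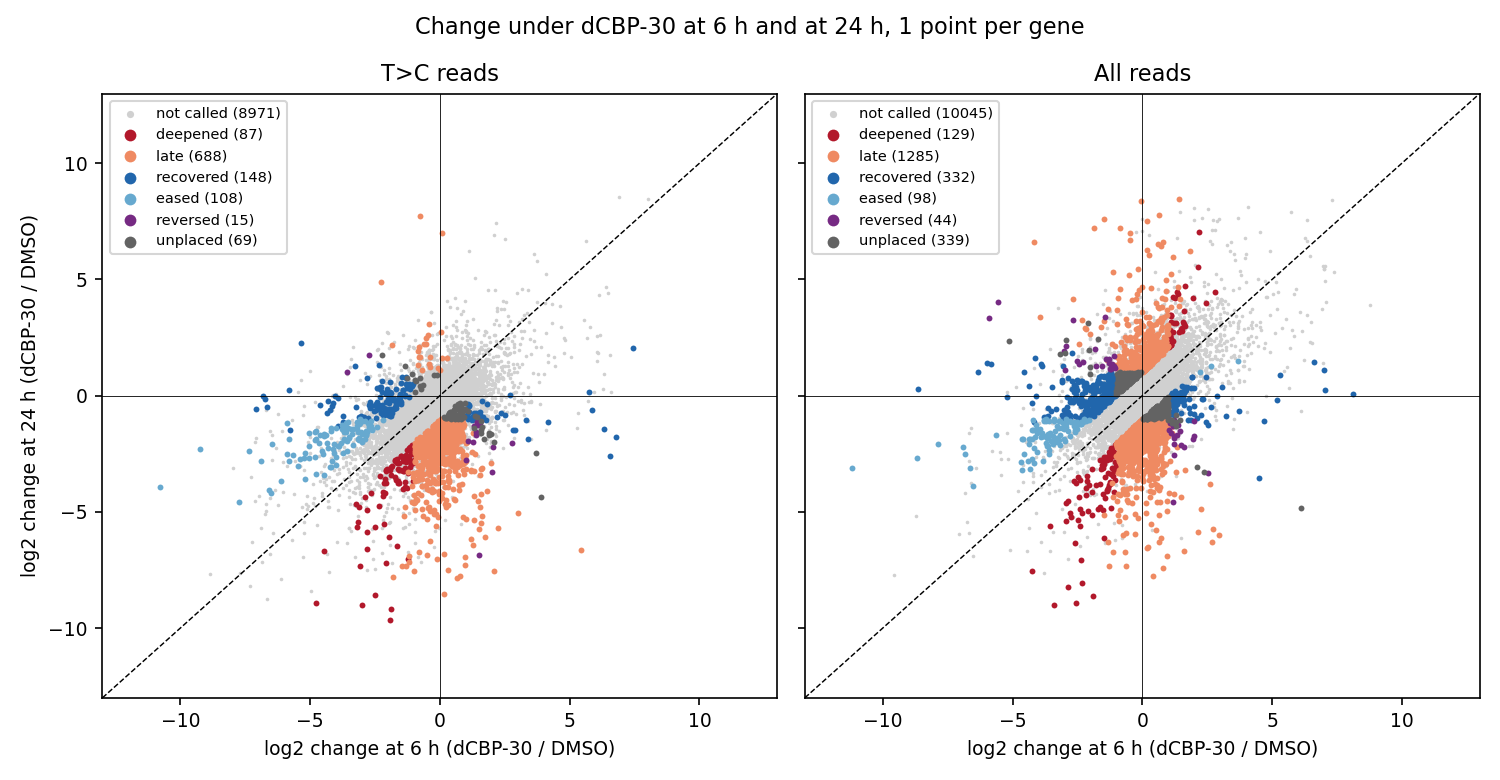
Effect of dCBP-30 at 24 h (vertical axis, log2 dCBP-30 over DMSO) against its effect at 6 h (horizontal axis) for each gene tested, in T>C reads and in all reads. Coloured points are genes whose difference was called, by class, and the diagonal marks no change between the times: the late decreases hang below the middle of the horizontal axis and the recovered and eased genes lie above the diagonal on the left.

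The comparison of 24 h with 6 h within each treatment was made beside it. Between 6 h and 24 h under dCBP-30, T>C reads of 648 genes (6.42%) fell and of 735 (7.29%) rose. Under DMSO, they fell in 2 (0.0198%) and rose in 128 (1.27%). In all reads the counts were 1313 (10.7%) and 1290 (10.5%) under dCBP-30 and 4 (0.0326%) and 2 (0.0163%) under DMSO. Of the 857 genes with a lower T>C difference, 523 were called lower within dCBP-30 and 54 were called higher within DMSO, 14 of them both, and 294 were called within neither. Their median change within DMSO was 0.62, against 0.43 over all genes. Of the 258 with a higher difference, 252 were called higher within dCBP-30, 1 was called within DMSO alone and 5 within neither. The 2 h libraries do not enter the difference itself, but they do enter the filter and the estimate of spread. At 2 h, 720 genes (7.14%) had lower and 167 (1.66%) higher T>C reads under dCBP-30. Of the 258 genes that were higher late, 165 were already lower at 2 h, among them 96 of 108 eased and 63 of 112 recovered genes, while of the 665 late decreases 9 were. Eased and recovered genes were placed by a call at 6 h and late genes by its absence, so these counts are descriptions.

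DNA replication genes fell late almost throughout their list. Of 46 replication genes tested, 42 fell between the times in T>C reads and 45 in all reads, and none rose, with a median difference of -3.38 in T>C reads against -0.37 over all genes. The median effect was -0.05 at 6 h and -3.25 at 24 h, and 41 of the 42 were late. RFC3, RFC5, POLD1 and POLE2 did not pass the test in T>C reads. The count was 42 of 46 also when T>C reads were scaled to each other.

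RRM2 encodes the regulated subunit of ribonucleotide reductase, which makes deoxynucleotides (counted over chr2:10129384-10131414, + strand, hg38). Its T>C level was 136, 138 and 137 RPM under DMSO and 147, 163 and 158 under dCBP-30 at 6 h, and 127, 167 and 133 under DMSO and 9.41, 8.24 and 10.2 under dCBP-30 at 24 h. The 24h-dCBP30 libraries lay far below the other 9, and dCBP-30 and DMSO were close at 6 h. The difference was -4.12 (standard error 0.20, adjusted p = 1.5e-24). MCM2 and MCM4 encode subunits of the replicative helicase. MCM2 measured 28, 27.8 and 27.5 RPM under DMSO and 30.8, 33 and 43.1 under dCBP-30 at 6 h, and 41, 38.6 and 46.5 under DMSO and 3.72, 2.8 and 3.11 under dCBP-30 at 24 h in T>C reads (chr3:127621771-127622436, + strand), a difference of -4.06 (standard error 0.28, adjusted p = 9e-18). Its 6h-dCBP30 libraries lay above 6h-DMSO, but the effect at 6 h did not pass the test (0.36, adjusted p = 0.16). MCM4 fell by more, with a difference of -5.16 (standard error 0.30, adjusted p = 8e-21), as did FAM111B, a serine protease of proliferating cells, at -4.98 (standard error 0.30, adjusted p = 6.2e-20). In all reads RRM2 went from 0.83 at 6 h to -3.30 at 24 h, MCM2 from 0.65 at 6 h to -4.04 at 24 h and FAM111B from 0.66 at 6 h to -5.13 at 24 h. In bulk RNA, fewer cells expressing a gene and less RNA per cell cannot be told apart.

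CLSPN (claspin, a replication checkpoint mediator) and ASF1B (a chaperone that delivers histones at the fork) rose at 6 h and were below DMSO at 24 h in all reads. ASF1B measured 300.2, 264 and 240.5 RPM under DMSO and 563, 546 and 747 under dCBP-30 at 6 h, and 306, 278 and 309.8 under DMSO and 73.5, 70 and 70.5 under dCBP-30 at 24 h, and its difference was -3.27 (standard error 0.20, adjusted p = 2.1e-12). CLSPN measured 36.5, 25.9 and 23.5 RPM under DMSO and 72.1, 68.5 and 59.5 under dCBP-30 at 6 h, and 30.7, 26.6 and 31 under DMSO and 5.53, 3.13 and 6.38 under dCBP-30 at 24 h, and its difference was -3.77 (standard error 0.27, adjusted p = 6e-11). For both genes the 3 groups other than 24h-dCBP30 lay above it, and 6h-dCBP30 lay above every DMSO library. TYMS, the thymidylate synthase, had a log2 effect of -0.17 at 6 h and -3.74 at 24 h in T>C reads, and its difference was -3.56 (standard error 0.32, adjusted p = 4.7e-13).

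Promoters of many replication genes carry sites for E2F factors, and those of many mitotic genes the CHR element bound by the DREAM complex. The windows below, from RefSeq promoters of GRCh38.p14, are a choice of cell-cycle genes among those named here: late-decreasing genes and E2F2, which deepened. PSMD14, PSMC3, HSPH1 and H2AX, also late and lower, held the CHR element too, and NUSAP1 an E2F motif, and these are not shown. Outside the late-decreasing genes, the CHR element also lay in UNKL, which fell, and in ZBTB20, CCR1 and PRDM1, which rose between the times. Their windows are not shown either. RRM2, FAM111B, AURKB, FOXM1 and H4C3, late and lower in T>C reads, gave no window of either motif. Their promoter held no match or was not in the set searched, so the windows do not stand for all late-decreasing genes. Capitals mark the motif. The E2F motif was searched as TTTCCCGC, TTTCGCGC, TTTGCCGC or TTTGGCGC and the CHR element as TTTGAA, each on both strands, overlaps allowed, and the sequence is written along the gene's strand.
MCM2, E2F motif, chr3:127598403-127598430, + strand: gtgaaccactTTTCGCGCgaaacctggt
CLSPN, E2F motif, chr1:35769966-35769993, - strand: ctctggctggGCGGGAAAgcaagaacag
TYMS, E2F motif, chr18:657604-657631, + strand: cgggacggccGCGGGAAAaggcgcgcgg
E2F2, E2F motif, chr1:23531258-23531285, - strand: cggcacgacgTTTGGCGCtaaaaaaaaa
ASF1B, CHR element, chr19:14136601-14136626, - strand: aggccggctaTTTGAAggcggcgcgc
NUSAP1, CHR element, chr15:41332884-41332909, + strand: gcgccagggaTTTGAAccgcgctgac
H2AZ1, CHR element, chr4:99950256-99950281, - strand: gacagcgcagTTTGAAtcgcggtgcg

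An E2F motif lay in 21 of 40 promoters of the replication list (52.5%), in 15.5% of 549 promoters of late-decreasing genes, in 5.88% of 8208 promoters of genes tested in T>C reads and in 3.33% of all 27305 promoters of that length (250 bases before to 50 after the start). Among 96 promoters of genes that recovered from a fall the share was 2.08%. The CHR element lay in 26 of 38 promoters of the mitosis list (68.4%), in 14.2% of the late-decreasing genes, in 6.25% of those that recovered from a fall, in 9.49% of those tested and in 15.4% of all. The E-box CACGTG was about as frequent in the late decreases (9.65%) as among genes tested (10.7%), and lay in 12.5% of the promoters of genes that recovered from a fall and in 20 of 52 (38.5%) of the MYC target list. Of the deepened genes 67 of 87 and of the eased genes 82 of 108 had a promoter in the table, too few for a share, so none is drawn for them. A match is a stretch of letters and does not show that a factor binds there.

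Mitotic genes moved the same way but less. Of 44 tested, 14 fell in T>C reads and 18 in all reads, none rose, and the median T>C difference was -1.22. Under scaling of the T>C reads to each other the count was 9 of 44. AURKB, a kinase of chromosome segregation, measured 44.9, 26.6 and 36.4 RPM under DMSO and 29.6, 40.9 and 43.9 under dCBP-30 at 6 h, and 38, 41.7 and 37.3 under DMSO and 11.8, 11.2 and 16 under dCBP-30 at 24 h in T>C reads, with a difference of -1.67 (standard error 0.26, adjusted p = 1.8e-06). The 24h-dCBP30 libraries lay below all others without overlap, and the other 3 groups overlapped. FOXM1, a transcription factor of the mitotic programme, and NUSAP1, a spindle protein, fell with differences of -3.21 and -2.64. Of 11 genes tested in T>C reads from a histone list, which also holds the variants H2AX and H2AZ1, 4 fell. In all reads 5 of 16 fell and 1 rose. H4C3, which encodes histone H4, was the histone gene with the smallest p, at 48.1, 66 and 73.7 RPM under DMSO and 93.8, 77 and 71.9 under dCBP-30 at 6 h, and 76.2, 131 and 159 under DMSO and 9.63, 11.5 and 8.8 under dCBP-30 at 24 h and a difference of -3.98 (standard error 0.27, adjusted p = 1.9e-16). H2AX and H2AZ1, a histone variant of repair and one of promoters, had differences of -1.82 and -1.47. Histone genes of a family share sequence, so their reads can be split between copies. The libraries were primed at the 3′ end, so the histone values cover only RNA captured that way. Its share of all histone RNA was not measured.

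**Figure D3:**
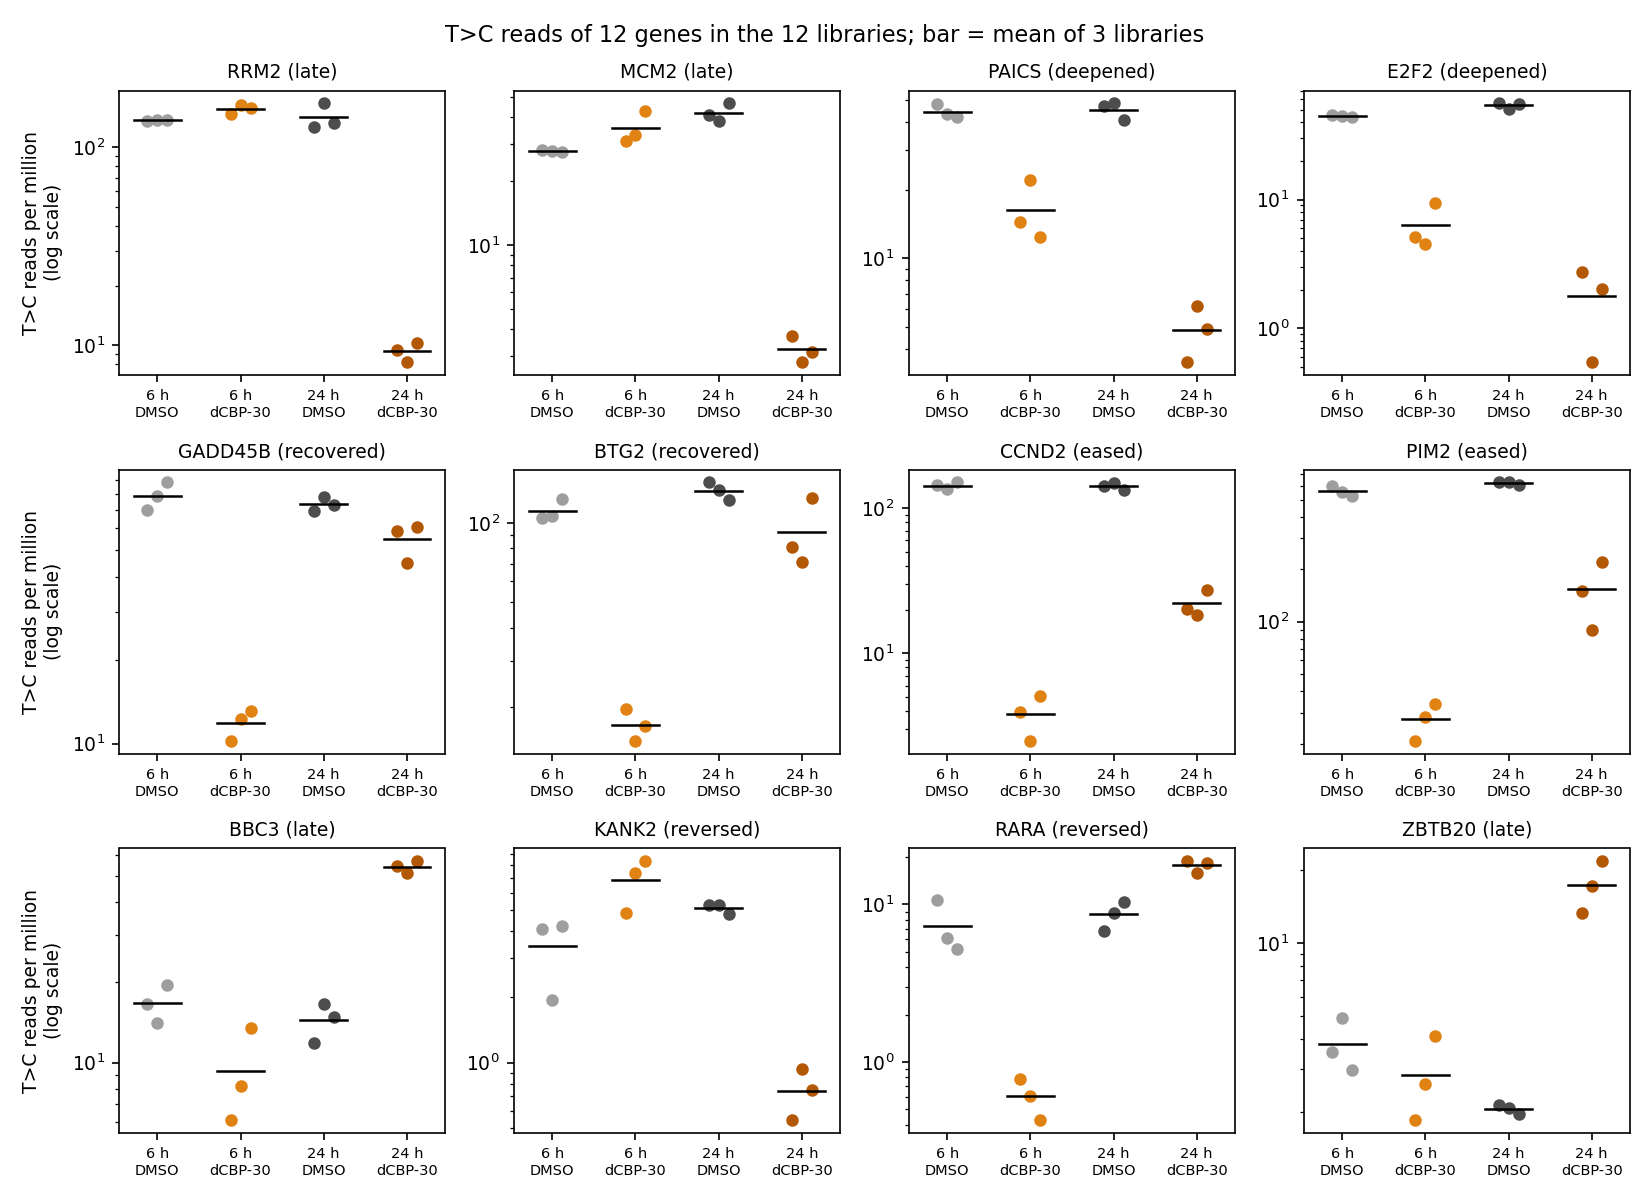
T>C level in RPM (log axis) of single genes in each of the 12 libraries of the 4 groups, with the group mean as a line, for 12 genes. RRM2 stays level until 24h-dCBP30, GADD45B drops at 6 h and returns near DMSO, and CCND2 stays below DMSO at both times but is nearer to it at 24 h.

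Some genes of growth and nucleotide synthesis were low at 6 h and lower at 24 h. Of 60 MYC targets tested, 9 fell between the times in T>C reads, where 8.5% of all genes did, 49 were not called, and 8 of the 9 were deepened: PAICS, MRTO4, SLC19A1, CTPS1, NOP56, IMPDH2, FBL and SRM. Their work lies in purine, CTP, folate and polyamine supply and in ribosome assembly. CCND2 and EIF4A1 were the 2 members that eased. The list's median T>C difference was -0.37, the same as over all genes, while in all reads 26 of 60 fell, none rose, and the median was -0.91 against 0.03. Most of the T>C decrease of this list was thus present at 6 h (median -1.79 at 6 h and -2.31 at 24 h), and in all reads it went from -0.85 at 6 h to -1.93 at 24 h. When T>C reads were scaled to each other, 6 members were lower and 3 higher, and the median relative to all genes was -0.004.

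PAICS, an enzyme of purine synthesis (chr4:56459536-56464578, + strand), measured 48.2, 43.2 and 42 RPM under DMSO and 14.6, 22.2 and 12.5 under dCBP-30 at 6 h, and 47.1, 48.3 and 40.7 under DMSO and 3.5, 6.15 and 4.88 under dCBP-30 at 24 h in T>C reads. The groups ordered without overlap as DMSO at either time, then 6h-dCBP30, then 24h-dCBP30. The difference was -1.79 (standard error 0.28, adjusted p = 1.6e-06), and with the T>C rate of the unlabelled libraries subtracted it was -1.22 and no longer called. CTPS1 (CTP synthase) had a T>C difference of -1.62 and a difference of -2.06 in all reads. Of 17 genes of nucleoside uptake and pyrimidine salvage, which handle 4sU itself, 4 fell in T>C reads and 6 of 19 in all reads. With T>C reads scaled to each other 1 of the 17 was lower. UCK2, the uridine-cytidine kinase, went from -2.31 at 6 h to -3.47 at 24 h in T>C reads and from -1.47 at 6 h to -2.66 at 24 h in all reads, and NME1, a nucleoside diphosphate kinase, from -2.06 at 6 h to -3.77 at 24 h and from -0.79 at 6 h to -3.33 at 24 h. The adjusted p of their T>C differences was 0.02 and 0.019, and both calls were lost when T>C reads were scaled to each other and when the unlabelled rate was subtracted. They were also lost when 1 library was left out, NME1 without 24h-DMSO replicate 3, 24h-dCBP30 replicate 1 or 6h-dCBP30 replicate 2, and UCK2 without 24h-DMSO replicate 1, 24h-dCBP30 replicates 1 or 2, or 6h-DMSO replicate 2 (differences -2.14 to -1.19 and -1.88 to -0.89). Uridine kinases also phosphorylate 4sU, and these values stand beside the conversions per T>C read given above, whose part was not tested.

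E2F2, an activator of replication genes, was deepened in both readouts. It measured 45.4, 44.9 and 43.5 RPM under DMSO and 5.09, 4.55 and 9.38 under dCBP-30 at 6 h, and 55.8, 50.8 and 55.5 under DMSO and 2.73, 0.549 and 2.04 under dCBP-30 at 24 h in T>C reads, a difference of -2.10 (standard error 0.39, adjusted p = 0.00015), and went from -1.95 at 6 h to -5.12 at 24 h in all reads with a difference of -3.18 (standard error 0.22, adjusted p = 2.8e-11). SFN (14-3-3 sigma) measured 3.61, 5.7 and 4 RPM under DMSO and 1.44, 1.44 and 2.82 under dCBP-30 at 6 h, and 8.16, 4.83 and 4.42 under DMSO and 0.0547, 0 and 0.0536 under dCBP-30 at 24 h in T>C reads. Its 24h-dCBP30 libraries held 2 T>C reads in all and those of 24h-DMSO 268, a level of 0.623% of DMSO with an exact 95% interval of 0.075% to 2.27% for counting error only, so its fitted difference of -5.81 rests on very few reads. PYCR1, an enzyme of proline synthesis, had 3 T>C reads against 252 (0.993%, exact interval 0.204% to 2.94%), and with the unlabelled rate subtracted its difference was 0.13. In all reads PYCR1 fell with a difference of -3.87 (standard error 0.26, adjusted p = 1.8e-11).

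Single genes of immunoglobulin, its folding and its receptor are given in both readouts. IGLL5, whose 3′ region overlaps the lambda constant segment IGLC1 so that its reads cannot be told from lambda light chain RNA, held 6.93% of all reads in 6h-DMSO, 6.03% in 6h-dCBP30, 6.86% in 24h-DMSO and 1.01% in 24h-dCBP30. Its difference in all reads was -2.76 (standard error 0.15, adjusted p = 3.7e-13), from -0.52 at 6 h to -3.28 at 24 h. In T>C reads it measured 492, 597 and 618 RPM under DMSO and 134, 126 and 141 under dCBP-30 at 6 h, and 677, 646 and 685 under DMSO and 80.5, 51.7 and 80.7 under dCBP-30 at 24 h, from -2.09 at 6 h to -3.24 at 24 h, a difference of -1.15 (standard error 0.18, adjusted p = 3e-06) that turned to 0.76 when the unlabelled rate was subtracted and was -0.96, no longer called, without 24h-dCBP30 replicate 2. The T>C call of IGLL5 was also lost when T>C reads were scaled to each other, in DESeq2 with T>C size factors and without trimmed-mean factors. TXNDC5, a protein disulfide isomerase of the endoplasmic reticulum whose reads are shared with the BLOC1S5-TXNDC5 read-through, measured 312, 281 and 306 RPM under DMSO and 13.8, 14.7 and 17.3 under dCBP-30 at 6 h, and 335, 333 and 292 under DMSO and 12.5, 6.87 and 15.7 under dCBP-30 at 24 h in T>C reads. The dCBP-30 libraries of both times overlapped there, with a difference of -0.48 (standard error 0.23, adjusted p = 0.17) that turned to 0.91 after subtraction of the unlabelled rate. In all reads it had means of 4154 RPM under DMSO and 1618 under dCBP-30 at 6 h, and 3195 and 189 at 24 h, a difference of -2.72 (standard error 0.18, adjusted p = 1.5e-11). FCMR, the Fc receptor for IgM, had a difference of -2.59 (standard error 0.20, adjusted p = 1.2e-10) in all reads and of -1.41 (standard error 0.44, adjusted p = 0.025) in T>C reads. The T>C call was lost under 9 of 23 alternatives, among them T>C reads scaled to each other (-1.10), subtraction of the unlabelled rate (-0.20), and each of 24h-DMSO, 24h-dCBP30, 6h-DMSO and 6h-dCBP30 replicate 2 left out (-1.39, -1.10, -1.34 and -0.72).

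**Figure D4:**
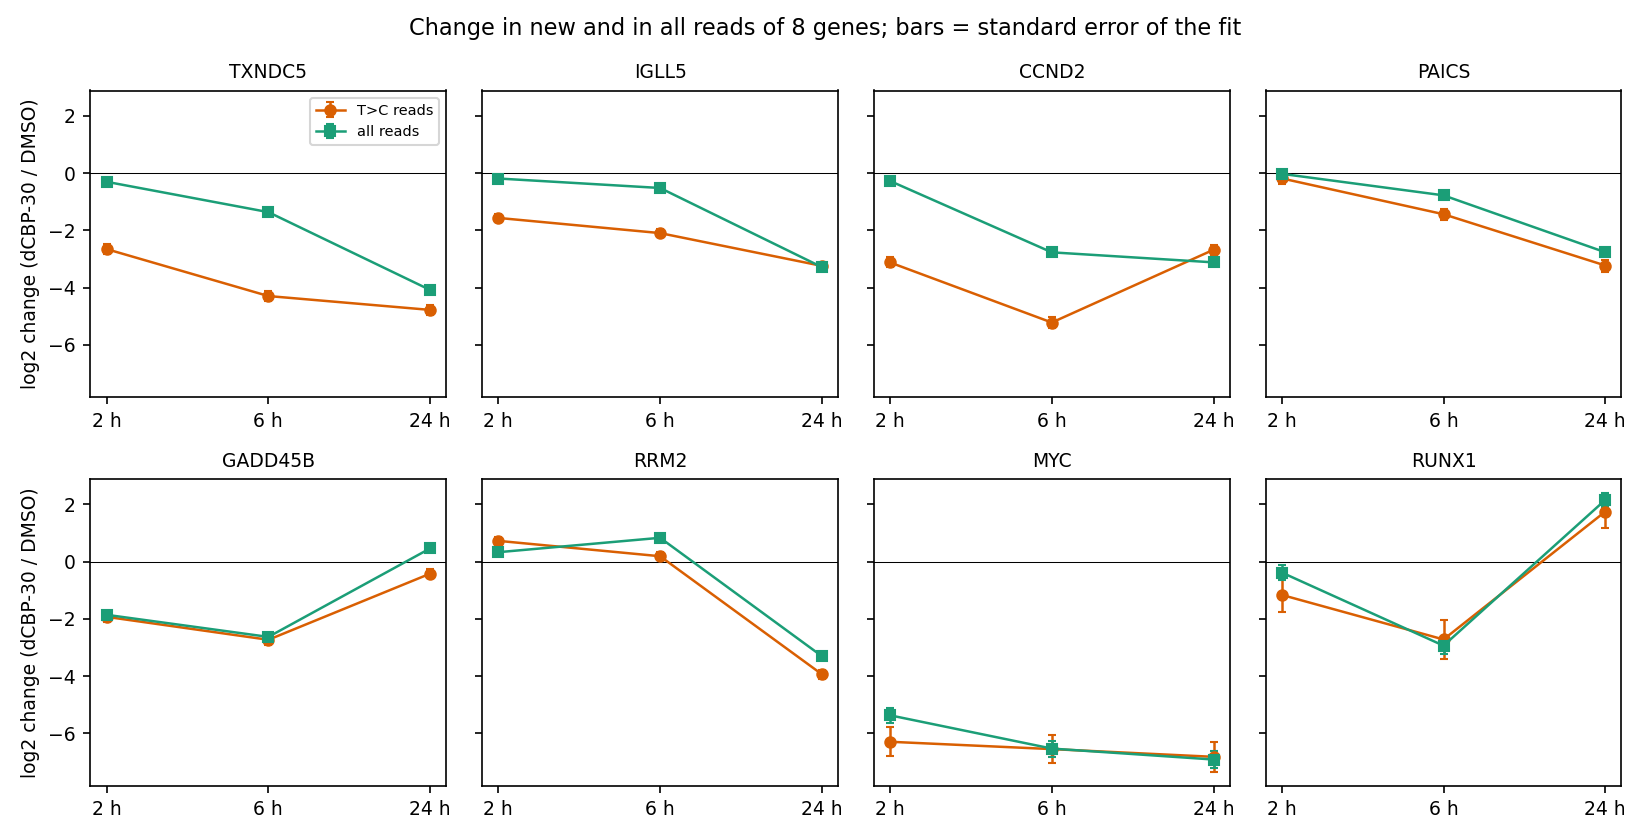
Effect of dCBP-30 (log2 dCBP-30 over DMSO) at 2 h, 6 h and 24 h on 8 genes in T>C reads and in all reads, with bars for the standard error of the fit. In TXNDC5 the T>C reads are low from 2 h and all reads follow (difference -2.72 in all reads), in CCND2 the T>C reads turn back at 24 h (difference 2.54) while all reads stay low.

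Over the 10086 genes tested in T>C reads, 485 were lower in both readouts and 193 higher in both, while 1 was lower in T>C reads and higher in all reads and 0 the other way. A further 371 were called lower and 65 higher in T>C reads alone, and 582 lower and 666 higher in all reads alone. The readouts share the T>C reads, so they are not independent. When reads with T>C conversions were left out of all reads, 1201 genes were lower and 1097 higher.

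Lower calls made up 8.5% of all genes in T>C reads and 9.7% in all reads, and higher calls 2.56% and 8.45%. Among the secretory and stress lists, 8 of 39 genes of the unfolded protein response and secretion fell in T>C reads and 12 of 41 in all reads. HERPUD1, a component of endoplasmic reticulum-associated degradation, was the 1 gene that rose in each. When T>C reads were scaled to each other, 6 of the 39 were lower and 2 higher. HSPA5 and CALR, chaperones of the endoplasmic reticulum, had T>C differences of -1.47 (standard error 0.21, adjusted p = 2.2e-07) and -1.60 (standard error 0.22, adjusted p = 1.4e-07), both from a smaller effect at 6 h (-0.14 and -0.59). From 6 h to 24 h HSPA5 changed by -0.80 within dCBP-30 and by 0.66 within DMSO, and CALR by -1.19 and 0.41. HERPUD1 went from -3.64 at 6 h to -1.44 at 24 h, a difference of 2.21 (standard error 0.22, adjusted p = 5.9e-12). Of 21 heat shock chaperones 4 were lower in T>C reads, 1 when T>C reads were scaled to each other, and 4 of 23 in all reads. HSPH1, a cochaperone of HSP70, had a T>C difference of -2.05, with a change of -1.01 within dCBP-30 and of 1.04 within DMSO. Of 31 proteasome genes 6 were lower in T>C reads, 2 when T>C reads were scaled to each other, and 3 of 32 in all reads. PSMD14 and PSMC3 had T>C differences of -2.41 and -2.03. PSMD14 rose within DMSO (1.38, adjusted p = 0.037) and did not pass the test within dCBP-30 (-1.02, adjusted p = 0.062). PSMC3 changed by -1.53 within dCBP-30 and by 0.50 within DMSO. Of 29 ATF4 targets 4 fell and 1 rose in T>C reads, and 1 was lower and 1 higher when these were scaled to each other. SLC1A5, a glutamine transporter, fell with a difference of -1.31 (standard error 0.29, adjusted p = 0.00095) and DDIT4, an inhibitor of mTORC1, rose with 2.74 (standard error 0.47, adjusted p = 1.7e-05), from -2.43 at 6 h to 0.31 at 24 h. Of 25 p53 targets 2 fell and 4 rose in T>C reads, and 5 of 28 fell and 5 rose in all reads. With T>C reads scaled to each other 0 of the 25 were lower and 5 higher.

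Part of the sterol and fatty acid synthesis genes fell between the times. Of 28 genes tested 8 fell in T>C reads, 4 of them deepened, and none rose. With T>C reads scaled to each other 5 were lower and 1 higher. In all reads 9 of 30 fell and 2 rose. The median went from -0.53 at 6 h to -1.52 at 24 h in T>C reads. EBP, an enzyme of the last steps of cholesterol synthesis, had a difference of -2.69 (standard error 0.43, adjusted p = 2.9e-06). INSIG1, which holds the SREBP escort in the endoplasmic reticulum, was lowered at 6 h already (-1.65 at 6 h and -2.90 at 24 h). The T>C calls of SLC1A5 and INSIG1 were lost when T>C reads were scaled to each other (-0.99 and -0.91) and in DESeq2 with T>C size factors. That of SLC1A5 was also lost when the unlabelled rate was subtracted.

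Ribosomal protein genes and oxidative phosphorylation genes changed in T>C reads about as the background did. Of 74 cytosolic ribosomal protein genes 7 were lower in T>C reads, near the 8.5% of all genes, 1 when T>C reads were scaled to each other, and 0 of 75 in all reads. RPL32 and RPL8 had T>C differences of -1.22 and -1.02, and both calls were lost under that scaling. Of 66 oxidative phosphorylation genes 2 were lower in T>C reads, NDUFS7 (-1.69) and UQCRC2 (-1.40), both lost under scaling of T>C reads to each other, and 2 of 66 in all reads. Of 35 glycolysis and hypoxia genes 2 fell and 2 rose in T>C reads, where 8.5% of all genes fell and 2.56% rose. PGAM1 and ENO2, glycolytic enzymes, had differences of -1.01 and -1.44. That of PGAM1 was no longer called under 8 of 23 alternatives, among them T>C reads scaled to each other (-0.69) and 24h-DMSO replicate 3 (-0.91), 24h-dCBP30 replicate 2 (-0.81), 6h-DMSO replicate 1 (-0.94) or 6h-dCBP30 replicate 2 (-0.88) left out.

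Immediate-early genes and feedback inhibitors of ERK and NF-kB signalling lost much of their early decrease. Of 29 immediate-early and ERK feedback genes tested in T>C reads, 12 rose between the times and none fell, and 13 of 32 rose in all reads. The median effect was -1.47 at 6 h and -0.53 at 24 h in T>C reads and -1.17 at 6 h and 0.47 at 24 h in all reads, against -0.69 and 0.05 at 24 h over all genes. Of 20 NF-kB response genes 4 rose in T>C reads and 13 of 24 in all reads, where the median went from -0.99 at 6 h to 0.38 at 24 h, and none fell in either. The higher calls made up 2.56% of genes in T>C reads and 8.45% in all reads.

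GADD45B, a stress-induced gene (chr19:2477599-2478257, + strand), measured 69.7, 78.5 and 88 RPM under DMSO and 10.2, 12.3 and 13.1 under dCBP-30 at 6 h, and 69.3, 78.1 and 72.8 under DMSO and 58.7, 45.1 and 60.9 under dCBP-30 at 24 h in T>C reads. The 6h-dCBP30 libraries lay far below DMSO, and the 24h-dCBP30 libraries just below theirs, without overlap. The difference was 2.31 (standard error 0.23, adjusted p = 5.9e-12). In all reads it went from -2.63 at 6 h to 0.46 at 24 h, a difference of 3.09 (standard error 0.17, adjusted p = 4.5e-13). BTG2, an antiproliferative gene, measured 104, 106 and 123 RPM under DMSO and 19.6, 14.9 and 17 under dCBP-30 at 6 h, and 142, 133 and 122 under DMSO and 81.1, 71 and 124 under dCBP-30 at 24 h in T>C reads, and 1 of its 24h-dCBP30 libraries lay within the range of 24h-DMSO. Its difference was 2.17 (standard error 0.23, adjusted p = 3.8e-11). ZFP36, whose product binds AU-rich messenger RNA, measured 43, 38.7 and 40.1 RPM under DMSO and 5.21, 5.11 and 8.58 under dCBP-30 at 6 h, and 38.7, 41.7 and 45.8 under DMSO and 33.1, 30.4 and 40.1 under dCBP-30 at 24 h, with overlap at 24 h and none at 6 h, and a difference of 2.41 (standard error 0.28, adjusted p = 1.3e-09). Its relative ZFP36L1 was -3.09 at 6 h and -1.02 at 24 h. NFKBIA, the inhibitor of NF-kB, had a difference of 1.35 (standard error 0.21, adjusted p = 1.6e-06) in T>C reads, from -1.52 at 6 h to -0.17 at 24 h, and CFLAR, an inhibitor of caspase-8, of 1.83 (standard error 0.29, adjusted p = 2.8e-06), from -2.46 at 6 h to -0.62 at 24 h. IRF1, an interferon-response factor, went from -2.21 at 6 h to -0.73 at 24 h, and HDAC7, a class IIa deacetylase, from -2.14 at 6 h to -0.81 at 24 h.

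Part of the regulators of plasma cells and myeloma rose between the times. Of 49 tested in T>C reads 15 rose, of which 12 eased and so were still called low at 24 h, 2 recovered and 1 reversed, and 2 fell. In all reads 20 of 51 rose, 10 of them eased, 7 recovered, 2 reversed and 1 late, and 6 fell. The list holds genes that the study chose from these samples, so its count is not independent evidence. Its median effect was -2.75 at 6 h and -1.81 at 24 h in T>C reads and -2.15 at 6 h and -1.35 at 24 h in all reads.

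CCND2 encodes cyclin D2, which drives entry into the cell cycle in many myelomas (chr12:4300007-4305353, + strand). It measured 144, 134 and 150 RPM under DMSO and 3.95, 2.5 and 5.09 under dCBP-30 at 6 h, and 141, 149 and 132 under DMSO and 20.2, 18.4 and 27.5 under dCBP-30 at 24 h in T>C reads. New RNA of CCND2 was thus higher at 24 h than at 6 h under dCBP-30 in every library, and still below every DMSO library. The difference was 2.54 (standard error 0.24, adjusted p = 2.9e-12). All reads of CCND2 showed no such return, with means of 1893 RPM under DMSO and 278 under dCBP-30 at 6 h, and 1492 and 172 at 24 h and a difference of -0.35 (standard error 0.15, adjusted p = 0.081). CCR1, a chemokine receptor, measured 104, 113 and 113 RPM under DMSO and 1.08, 1.05 and 1.47 under dCBP-30 at 6 h, and 84.5, 117 and 102 under DMSO and 4.21, 5.93 and 6.22 under dCBP-30 at 24 h in T>C reads, a difference of 2.30 (standard error 0.32, adjusted p = 2.3e-07). PIM2, a kinase of myeloma survival (chrX:48913182-48914133, - strand), measured 602, 550.4 and 522 RPM under DMSO and 20.7, 28.5 and 33.7 under dCBP-30 at 6 h, and 628, 628 and 609 under DMSO and 150.2, 90 and 221 under dCBP-30 at 24 h, a difference of 2.32 (standard error 0.29, adjusted p = 3e-06), with 24h-dCBP30 libraries that spread by more than a factor of 2 among themselves. MAF, a transcription factor of myeloma (chr16:79594331-79598783, - strand), measured 159, 133 and 143 RPM under DMSO and 3.41, 3.27 and 5.15 under dCBP-30 at 6 h, and 228, 200.4 and 218 under DMSO and 17, 13.5 and 22.9 under dCBP-30 at 24 h, and all 3 of its 24h-dCBP30 libraries lay above all 3 of 6h-dCBP30. Its difference was 1.60 (standard error 0.25, adjusted p = 2.1e-06). PRDM1 (Blimp-1), the regulator of plasma cell identity, measured 366, 359 and 345 RPM under DMSO and 18.7, 13.2 and 16.4 under dCBP-30 at 6 h, and 369, 312 and 344 under DMSO and 33.6, 17.6 and 46 under dCBP-30 at 24 h, with overlap of the dCBP-30 groups and a difference of 1.07 (standard error 0.30, adjusted p = 0.018). That call was lost without 24h-dCBP30 replicate 3 (0.73), 6h-DMSO replicate 1 (1.05), 6h-dCBP30 replicate 2 (0.95, under 2-fold) and 6h-dCBP30 replicate 3 (1.09). IKZF3 (Aiolos) went from -3.40 at 6 h to -1.66 at 24 h, a difference of 1.74 (standard error 0.25, adjusted p = 3e-07). CELF2, an RNA-binding protein, IRF2BP2, a corepressor, and its relative IRF2BPL had differences of 2.42, 2.60 and 2.64 in T>C reads, and CXXC4, an inhibitor of Wnt signalling, of 2.67 and of 3.18 (standard error 0.21, adjusted p = 1.3e-11) in all reads.

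Other regulators did not pass the test. IRF4, the lineage factor of plasma cells, measured 151, 143 and 139.6 RPM under DMSO and 7.07, 5.44 and 9.32 under dCBP-30 at 6 h, and 161, 179 and 166 under DMSO and 6.02, 5.66 and 10.1 under dCBP-30 at 24 h in T>C reads. The dCBP-30 groups of both times overlapped, and the difference was -0.22 (standard error 0.24, adjusted p = 0.64). MYC measured 145, 117 and 119 RPM under DMSO and 0.479, 1.28 and 2.33 under dCBP-30 at 6 h, and 98.9, 93.8 and 98 under DMSO and 0.711, 0.934 and 0.912 under dCBP-30 at 24 h in T>C reads, low in all 6 dCBP-30 libraries, with a difference of -0.27 (standard error 0.70, adjusted p = 0.88) that turned to 0.07 when T>C reads were scaled to each other and to 0.34 without 6h-dCBP30 replicate 3. In all reads its difference was -0.38 (standard error 0.43, adjusted p = 0.55). MEF2C and TCF3, transcription factors of the B lineage, had T>C differences of 0.32 (standard error 0.27, adjusted p = 0.51) and -0.27 (standard error 0.28, adjusted p = 0.63). In all reads MEF2C had 0.81 (standard error 0.19, adjusted p = 0.0016) and TCF3 -0.47 (standard error 0.18, adjusted p = 0.048), both under 2-fold. The genes of the degrader's own targets were measured as well. EP300 was called in all reads, from 0.71 at 6 h to 1.83 at 24 h and a difference of 1.13 (standard error 0.26, adjusted p = 0.0016), and CREBBP was not, from 0.93 at 6 h to 1.23 at 24 h and 0.30 (standard error 0.29, adjusted p = 0.48). In T>C reads EP300 measured 43.5, 34.6 and 38 RPM under DMSO and 32.3, 39.6 and 54.2 under dCBP-30 at 6 h, and 54.2, 35.4 and 42 under DMSO and 75.8, 73.7 and 103 under dCBP-30 at 24 h, a difference of 0.82 (standard error 0.28, adjusted p = 0.044), under 2-fold, which passed it without 24h-DMSO replicate 1 or 6h-dCBP30 replicate 3 (1.00 and 1.05), with T>C reads scaled to each other (1.15), without TMM factors (1.02) and in DESeq2 with T>C size factors (1.19). CREBBP had a T>C difference of -0.65 (adjusted p = 0.38), not called and of the other sign than in all reads. These are RNA levels, and the proteins that dCBP-30 removes were not measured here. Of 44 acetyltransferase, deacetylase and BET genes 1 fell and 1 rose in T>C reads, and 2 of 46 fell and 5 rose in all reads. These rises lay near the share of all genes that rose, 2.56% in T>C reads and 8.45% in all reads. Falls made up 8.5% and 9.7% of all genes.

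**Figure D5:**
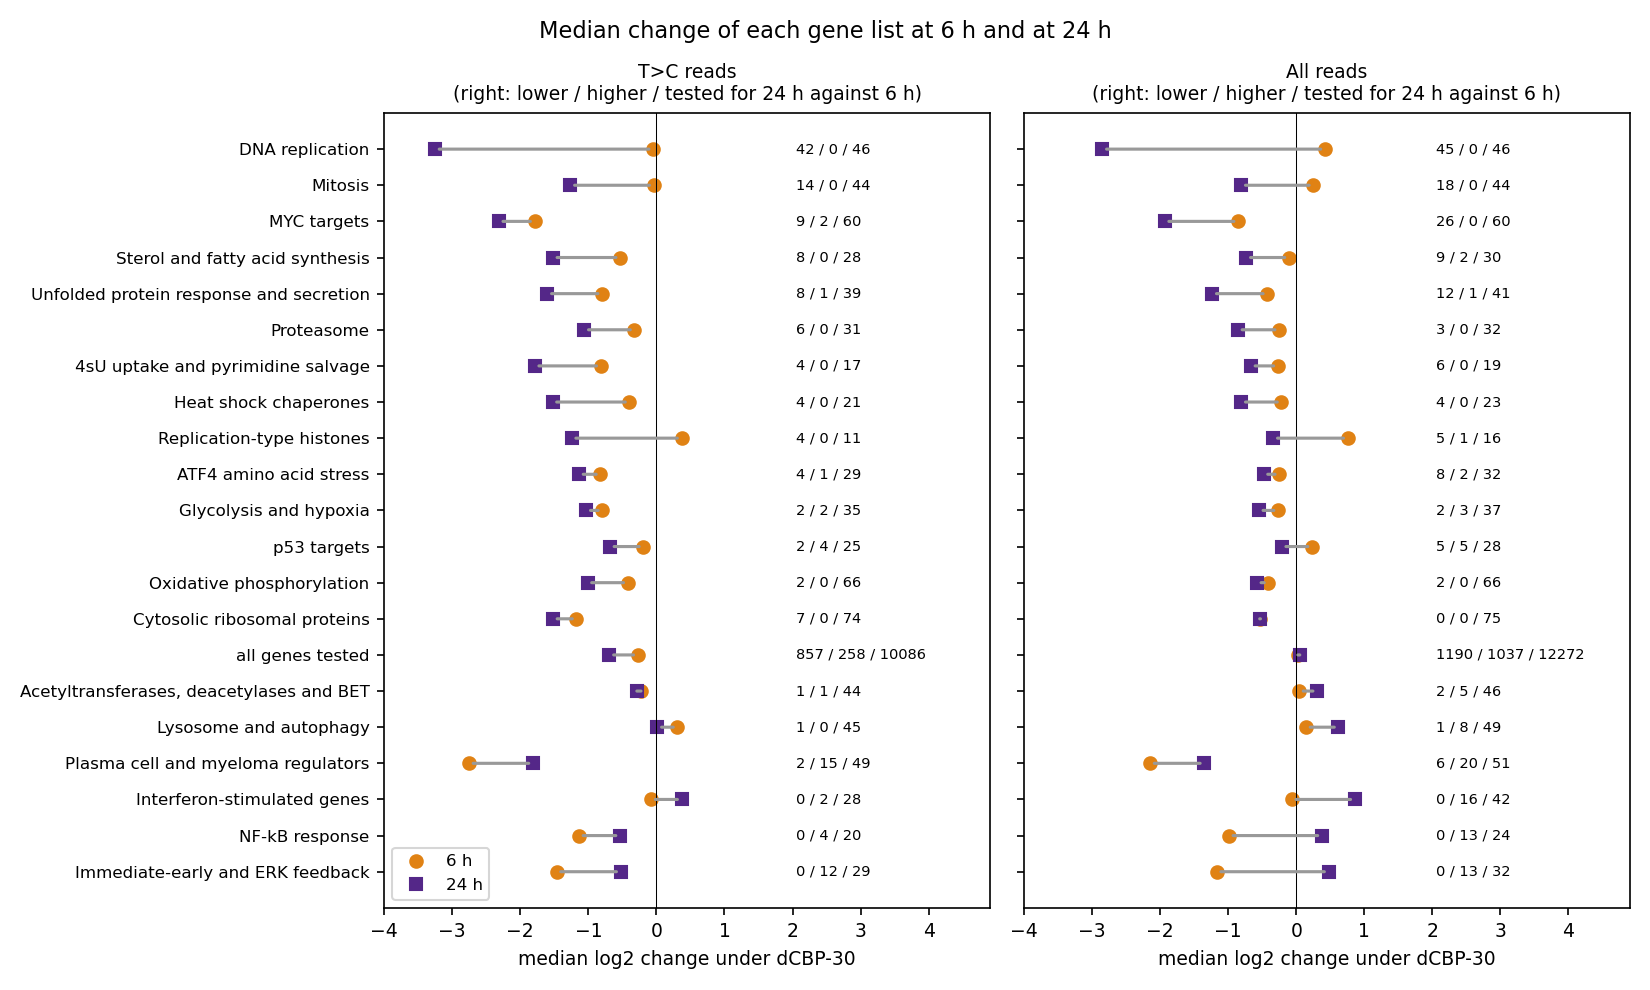
Median effect of dCBP-30 (log2 dCBP-30 over DMSO) at 6 h (circle) and at 24 h (square) over the tested members of each gene list, in T>C reads and in all reads, with the counts of members lower, higher and tested for 24 h against 6 h. The longest line belongs to the replication genes, and the immediate-early, NF-kB and plasma cell lists move to the right.

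A smaller group was called first at 24 h and higher. In T>C reads it held 23 genes, and 13 to 15 without 24h-DMSO replicate 1, 24h-dCBP30 replicate 3, 6h-dCBP30 replicate 1 or 6h-dCBP30 replicate 2. BBC3 encodes PUMA, a BH3-only inducer of apoptosis (chr19:47220824-47221703, - strand), and measured 16.6, 14.1 and 19.5 RPM under DMSO and 6.11, 8.16 and 13.6 under dCBP-30 at 6 h, and 11.9, 16.6 and 14.9 under DMSO and 54.8, 51.2 and 56.9 under dCBP-30 at 24 h. At 6 h the dCBP-30 libraries lay below those under DMSO, and at 24 h every dCBP-30 library was above every other library. The difference was 2.77 (standard error 0.31, adjusted p = 5.6e-10). ZBTB20, a transcriptional repressor, measured 3.54, 4.89 and 2.98 RPM under DMSO and 1.86, 2.61 and 4.11 under dCBP-30 at 6 h, and 2.14, 2.09 and 1.96 under DMSO and 13.3, 17.1 and 21.7 under dCBP-30 at 24 h in T>C reads, a difference of 3.49 (standard error 0.50, adjusted p = 3.6e-07), and of 4.43 (standard error 0.35, adjusted p = 2.3e-10) in all reads. In all reads CAPG, an actin-capping protein, measured 2.19, 1.94 and 3.05 RPM under DMSO and 4.13, 3.38 and 4.29 under dCBP-30 at 6 h, and 0.518, 0.656 and 1.52 under DMSO and 82.7, 71.4 and 74.4 under dCBP-30 at 24 h, a difference of 5.71 (standard error 0.47, adjusted p = 6.2e-10). Of 49 lysosome and autophagy genes 8 rose and 1 fell in all reads, with a median of 0.53, while of 45 tested in T>C reads 1 fell and none rose. Among all genes tested 8.45% rose and 9.7% fell in all reads, with a median of 0.03.

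Part of the interferon-stimulated genes rose in all reads. Of 42 tested 16 rose and none fell, 8 of them late, and the median went from -0.07 at 6 h to 0.86 at 24 h. In T>C reads 2 of 28 rose. The share of all genes that rose was 8.45% in all reads and 2.56% in T>C reads. DTX3L, a ubiquitin ligase of the interferon response, measured 13.4, 14.5 and 11.5 RPM under DMSO and 10.2, 11.2 and 10.9 under dCBP-30 at 6 h, and 8.49, 11.6 and 9.06 under DMSO and 54.4, 55.8 and 56.2 under dCBP-30 at 24 h in all reads, a little below DMSO at 6 h and above every other library at 24 h, with a difference of 2.79 (standard error 0.24, adjusted p = 1.2e-09). IFI6 measured 32.8, 35.9 and 39.7 RPM under DMSO and 69.5, 79.9 and 86.2 under dCBP-30 at 6 h, and 48.8, 41 and 46.5 under DMSO and 231, 239 and 270.3 under dCBP-30 at 24 h, higher under dCBP-30 at both times without overlap and more so at 24 h, a difference of 1.32 (standard error 0.17, adjusted p = 1.1e-06). XAF1, a proapoptotic interferon target, measured 1.42, 3.28 and 2.37 RPM under DMSO and 5.57, 6.1 and 6.13 under dCBP-30 at 6 h, and 3.5, 2.38 and 2.61 under DMSO and 61.7, 62.8 and 61.3 under dCBP-30 at 24 h, a difference of 3.12 (standard error 0.50, adjusted p = 2.5e-05). SMIM14, a small membrane protein, also deepened upward, with a difference of 1.48 (standard error 0.26, adjusted p = 5.8e-05). In T>C reads the differences of IFI6, XAF1 and SMIM14 were not called, and the 6h-DMSO libraries held 14, 9 and 21 T>C reads of these genes in all.

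A few genes crossed from one side of DMSO to the other. RARA, the retinoic acid receptor alpha (chr17:40356224-40357643, + strand), measured 10.6, 6.1 and 5.22 RPM under DMSO and 0.778, 0.61 and 0.429 under dCBP-30 at 6 h, and 6.8, 8.82 and 10.3 under DMSO and 18.8, 15.9 and 18.4 under dCBP-30 at 24 h in T>C reads. It was below every DMSO library at 6 h and above every DMSO library at 24 h. The difference was 4.61 (standard error 0.46, adjusted p = 1e-11), and 4.06 (standard error 0.31, adjusted p = 1.3e-10) in all reads. RUNX1, a haematopoietic transcription factor, measured 7.64, 7.98 and 6.04 RPM under DMSO and 0.659, 1.17 and 0.981 under dCBP-30 at 6 h, and 5.31, 5.9 and 7.9 under DMSO and 27.3, 29.9 and 27.9 under dCBP-30 at 24 h in all reads and crossed in the same way, with differences of 4.47 (standard error 0.88, adjusted p = 0.00017) in T>C reads and 5.09 (standard error 0.38, adjusted p = 8.7e-11) in all reads. Its 6h-dCBP30 libraries held 12 T>C reads in all and those of 6h-DMSO 70, so the T>C difference rests on few reads. PCED1B measured 14.4, 10.8 and 10.2 RPM under DMSO and 1.62, 3.05 and 2.57 under dCBP-30 at 6 h, and 8.49, 10.4 and 9.21 under DMSO and 27.8, 23.7 and 26.3 under dCBP-30 at 24 h in all reads, a difference of 3.75 (standard error 0.36, adjusted p = 8.9e-09). In the other direction, TP73, a member of the p53 family, measured 23.2, 17.4 and 16.6 RPM under DMSO and 34.8, 40.4 and 55 under dCBP-30 at 6 h, and 28.1, 22.8 and 23.4 under DMSO and 0.328, 2.36 and 0.376 under dCBP-30 at 24 h in all reads, a difference of -5.78 (standard error 0.49, adjusted p = 3.4e-09). In T>C reads TP73 had 1 read in 24h-dCBP30 and 141 in 24h-DMSO, a level of 0.592% of DMSO with an exact 95% interval of 0.0149% to 3.35%, and its fitted difference of -8.38 depends on that read. Its promoter held an E2F motif, shown because TP73 was low at 24 h as the replication genes were.
TP73, E2F motif, chr1:3652271-3652298, + strand: ggagcgacgcGCGCCAAAaggcggcggg

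KANK2, an adaptor of the cell cortex (chr19:11164270-11166560, - strand), measured 4.11, 1.94 and 4.21 RPM under DMSO and 4.85, 7.38 and 8.34 under dCBP-30 at 6 h, and 5.25, 5.25 and 4.79 under DMSO and 0.547, 0.934 and 0.751 under dCBP-30 at 24 h in T>C reads, a difference of -3.77 (standard error 0.54, adjusted p = 3.1e-07), and of -3.04 (standard error 0.23, adjusted p = 1.4e-10) in all reads. SNX22, a sorting nexin, had a T>C difference of -3.26 (standard error 0.48, adjusted p = 5.4e-07), from 1.28 at 6 h to -1.98 at 24 h. ATP1B1, a subunit of the sodium pump, and UNKL, a zinc finger protein, went from 1.56 at 6 h to -1.17 at 24 h and from 1.46 at 6 h to -1.28 at 24 h in T>C reads, with differences of -2.73 (standard error 0.51, adjusted p = 7.2e-05) and -2.74 (standard error 0.59, adjusted p = 0.00055). That of UNKL was -0.99, not called, when the reads of all its transcripts were summed. In all reads the same genes were nearer to DMSO at 24 h, at -0.39 and -0.41.

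Rises at 6 h that were gone at 24 h were fewer. In T>C reads they were 36 genes, with a median effect of 1.65 at 6 h and -0.86 at 24 h. RND1, a small GTPase, and ZNF346, a zinc finger protein, had T>C differences of -1.82 and -2.26, NAP1L2, a nucleosome assembly protein, of -3.34, and CTSA, a lysosomal protease, of -2.16. In this class the median change from 6 h to 24 h was 1.61 under DMSO and -1.15 under dCBP-30, and 11 of the 36 genes were called within DMSO alone, 9 within dCBP-30 alone and 16 within neither. RND1 fell within dCBP-30 (-1.35, adjusted p = 0.00026). ZNF346, NAP1L2 and CTSA rose within DMSO (1.47, 2.14 and 1.64, adjusted p = 0.019, 0.037 and 0.026) and did not pass the test within dCBP-30 (adjusted p = 0.12, 0.13 and 0.43). In all reads NAP1L2 and CTSA had differences of -0.013 and 0.17 (adjusted p = 0.99 and 0.5). DPF1, a subunit of the neuronal BAF complex, went from 1.99 at 6 h to -0.79 at 24 h in all reads, a difference of -2.77 (standard error 0.33, adjusted p = 3.6e-07). PLEKHM3 and PLCD1 were raised at both times in all reads and less so at 24 h, with differences of -1.22 (standard error 0.39, adjusted p = 0.017) and -1.35 (standard error 0.48, adjusted p = 0.032). The first was lost without 24h-DMSO replicate 1 (adjusted p = 0.061) or 6h-DMSO replicate 1 (adjusted p = 0.054) and the second without any of 6 libraries, 24h-DMSO replicate 2, 24h-dCBP30 replicates 1 and 3, 6h-DMSO replicates 2 and 3 and 6h-dCBP30 replicate 2 (-1.57 to -1.07 over all libraries left out).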

How the data were processed

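SLAM-seq measured new and total RNA in MM1.S cells kept in DMSO or 10 nM dCBP-30. RNA from Drosophila S2 cells was spiked in, but no spike-in scaling was used here. Per the study's methods, the authors trimmed reads with Trim Galore, ran Slamdunk at default settings against hg38 3′ UTRs and collapsed the output, and they tested genes with DESeq. The deposited files hold raw counts per transcript of all reads, of T>C reads, of covered T positions and of conversions, not normalized and not pooled. Reads carry no molecular identifiers, so intervals cover counting error only.

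Transcripts were matched to GENCODE release 44 by identifier (89088 of 97466, 91.4%). Unmatched rows held 0.0789% to 0.199% of reads and were left out of library sizes. For each of 19617 genes, 77.3% of which had more than 1 transcript, the transcript with the most reads over all files was kept. Replicates of a group differed by more than sampling noise (chi-square per degree of freedom 8.54 to 50.1), so none was counted as a duplicate.

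Counts were fitted with edgeR 4.0.16 (R 4.3.3; quasi-likelihood test, robust) over the 18 labelled libraries with 1 mean per group, low counts removed by filterByExpr at a minimum count of 10, and library size as total reads times the trimmed-mean (TMM) factor of total reads in both readouts. P-values were adjusted by Benjamini-Hochberg over all genes tested. Printed levels are reads per 1000000 of that library size (RPM), and effects and differences are on the log2 scale. The fit was tested on simulated data. Replicate numbers are shared by the groups, but same-numbered libraries did not deviate together on average (mean correlation -0.003 in T>C reads and -0.013 in all reads), so no block was used. Single pairs did correlate in all reads. Those with the same number ranged from -0.22 (6h-dCBP30 replicate 1 with 24h-DMSO replicate 1) to 0.14 (6h-DMSO replicate 1 with 24h-DMSO replicate 1). Those with different numbers ranged from -0.22 (6h-dCBP30 replicate 3 with 24h-DMSO replicate 2) to 0.26 (6h-dCBP30 replicate 3 with 24h-DMSO replicate 1). What such libraries share was not tested. Alternatives were other scalings, DESeq2 1.42.0, summed transcripts, subtraction of the unlabelled T>C rate, other filters and thresholds, and each replicate left out.

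Genes were named by rule: per readout, class and direction the 3 protein-coding genes with the smallest p among those called with a mean of at least 20 reads in the highest group, the 3 called members of each list with the smallest p, and regulators the study names. A few genes that the rule names are not reported here. The genes, the 21 gene lists and the classes were chosen with earlier results of these data known. In the simulated data nearly all 2-fold changes in T>C reads were missed, and 4-fold changes were missed about as often as found, so a gene not called may have changed. Promoter windows came from RefSeq (GRCh38.p14), which shares coordinates with hg38.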

Additional observations from a re-analysis of the deposited data

Results flagged for a closer look

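The test of the difference between the 2 times itself was passed by 857 genes lower and 258 higher late in T>C reads and by 1190 lower and 1037 higher in all reads, each as a test of whether the effect of dCBP-30 differed between 6 h and 24 h.

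Among them, genes whose effect turned from one side of DMSO to the other were TP73 (difference -8.38 in T>C reads, resting on 1 read at 24 h, and -5.78 in all reads), KANK2 (-3.77 and -3.04), RARA (4.61 and 4.06) and RUNX1 (4.47 and 5.09). The T>C difference of RUNX1 rests on 12 T>C reads in 6h-dCBP30. SNX22 (-3.26), ATP1B1 (-2.73) and UNKL (-2.74) turned in T>C reads. ASF1B (-3.27), CLSPN (-3.77) and PCED1B (3.75) turned in all reads. The first 4 genes turned in both readouts, which share the T>C reads.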

How the results depend on the processing

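Of 173 differences tested for named genes, 131 kept their call and direction under all alternatives evaluated for single genes (23 in T>C reads, 21 in all reads). With size factors from T>C reads in DESeq2, T>C calls were 571 lower and 544 higher, deepened lower genes 26, late 365 lower and 135 higher, and recovered 76 lower and 248 higher. With edgeR and T>C reads scaled to each other, the counts were 498 and 455, 22, 358 and 94, and 219 recovered higher. Without TMM factors they were 35 deepened, 426 late lower and 63 late higher, and 58 recovered lower and 169 recovered higher in T>C reads, and in all reads 46 deepened lower, 138 deepened higher, 507 late lower, 859 late higher, 62 eased higher and 32 reversed lower. DESeq2 with size factors from all reads gave 60 recovered lower T>C genes, summed transcripts 55 deepened, subtraction of the unlabelled T>C rate 12 late higher, and an adjusted p under 0.1 gave 36 late higher and 66 recovered lower. With no limit on the fold, 165 genes were deepened lower in T>C reads. In all reads 2034 were then lower and 1908 higher, with 521 deepened lower, 236 deepened higher, 837 late higher, 203 recovered lower, 248 eased higher, 210 reversed lower and 186 reversed higher. Reads without T>C gave 37 reversed higher.

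Leaving out 1 library gave 13 to 27 late higher genes in T>C reads and 26 to 48 deepened higher genes in all reads, the lowest without 6h-dCBP30 replicate 2, and moved no other count that the placement of genes rests on by over 1.5 times: 708 to 918 T>C genes were lower, 206 to 292 higher, 1130 to 1199 lower in all reads and 970 to 1114 higher. With the replicate number as a block, 811 and 239 genes were called in T>C reads and 1164 and 1001 in all reads. Same-numbered libraries did not deviate together on average.

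Signs turned for IGLL5 (0.76), TXNDC5 (0.91) and PYCR1 (0.13) after subtraction of the unlabelled T>C rate in T>C reads, for MYC (0.10 and 0.069), IRF4 (0.15 and 0.11) and TCF3 (0.11 and 0.079) with DESeq2's T>C size factors and with T>C scaling in edgeR, for IRF4 in all reads without TMM factors (0.031), and for MYC without 6h-dCBP30 replicate 3 (0.34 in T>C reads, over a range of -0.67 to 0.34 for any library left out, and 0.20 in all reads, over a range of -0.78 to 0.20). NAP1L2 in all reads, near 0, turned without TMM factors (0.195), in reads without T>C (0.356) and with the replicate block (0.012), over a range of -0.258 to 0.209 for any library left out. The cause was not tested. The number of T>C reads per library, 739246 to 1525634, limits the precision of the T>C readout.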

Other observations

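Markers of cells other than plasma cells were low in all groups but not all flat. CD3E measured a mean of 5.12, 4.49, 5.27 and 12.9 RPM in all reads in 6h-DMSO, 6h-dCBP30, 24h-DMSO and 24h-dCBP30, PECAM1 12.1, 5.67, 8.34 and 3.14, and HBB 8.49, 1.06, 8.48 and 1.47. The median T>C share at 2 h under DMSO was 10.7% for genes whose T>C reads were lower late, 13.2% for those higher late and 9.27% for all genes tested.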
